A study of Mus musculus with 6 samples.

Results

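Mesonephric epithelium markers are genes that mark the tubes lying beside the embryonic gonad, the nephric (Wolffian) duct and the mesonephric tubules. They were followed here in purified gonadal somatic cells of XY mouse embryos at E11.5. The 9 genes were chosen by symbol (Calb1, Pax8, Spp1, Pax2, Gata3, Lhx1, Wfdc2, Epcam and Tfap2b), and 7 of them have values among the 11736 genes of the deposited tables. Lhx1 and Tfap2b are not analysed here. The cells came from male C57BL/6 embryos of 2 genotypes, Cdyl-KO (homozygous for a Cdyl deficiency) and Cdyl-Het (heterozygous), with 3 libraries each. All 6 libraries also carried Nr5a1-hCD271, and cells with the surface marker hCD271 were taken with magnetic beads. Total RNA was sequenced with a stranded kit for very small inputs. There is no wild-type group, and the sources used here do not give the form of the Cdyl deficiency. The labels do not say whether the libraries came from separate embryos, pools or litters, so p-values measure only the spread between these libraries, which may be technical.

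As background, the nephric duct and tubules arise from intermediate mesoderm next to the tissue that forms the gonad. The paired-box factors Pax2 and Pax8 act together to start the nephric lineage, and Gata3 and Lhx1 act in growth and guidance of the duct. Epcam, Wfdc2 and Calb1 are found in the epithelium once it has formed. The duct later gives rise to the epididymis and vas deferens in males. These genes are not specific to the mesonephros: Calb1 is also a neuronal gene, and Spp1 is also made by bone cells and macrophages.

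The markers did not move as one group. Of the 7, Calb1 and Pax8 rose in Cdyl-KO and Spp1 fell, while Pax2, Gata3, Wfdc2 and Epcam did not pass the test. The test was limma across all genes on log2(scaled RPKM + 1), with p-values adjusted by Benjamini-Hochberg over the whole table and a threshold of 0.05. RPKM are reads per kilobase of gene, corrected for the total reads of the library, and scaled RPKM are these values divided by a factor for each library. Over all genes tested, 7.50% passed (4.67% higher and 2.83% lower in Cdyl-KO). The members, and the other gene lists described below, were chosen with earlier results of these data known. The shares over all genes are thus no independent yardstick for their counts. The 3 members that passed were also those whose groups did not overlap, and this was so for 31.6% of all genes. The median log2 change of the 7 members was -0.06, with 3 above 0 and 4 below, against a median of 0.00 for all genes.

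**Figure D1:**
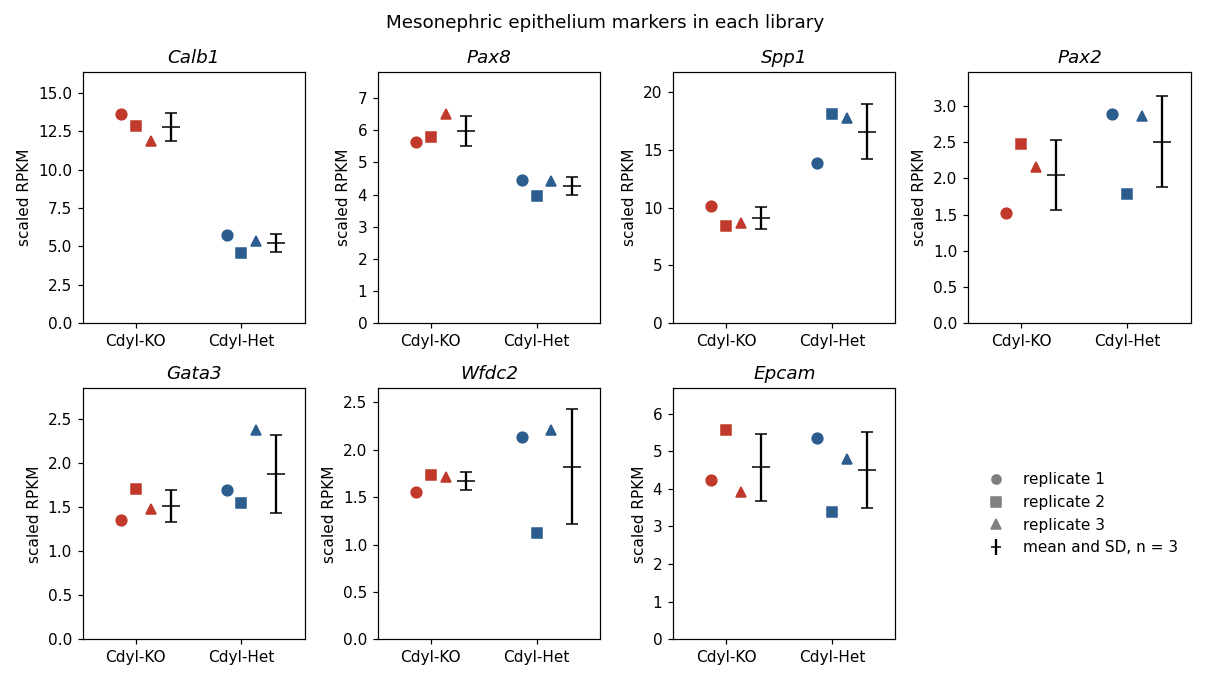
Level of each marker in scaled RPKM (y axis, starting at 0) in the Cdyl-KO libraries (red, left) and the Cdyl-Het libraries (blue, right); symbols give the replicate number, and the black mark and bar give the mean and SD over 3 libraries. Calb1, Pax8 and Spp1 have groups that do not overlap, whereas the other 4 overlap.

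Calb1 encodes calbindin, a calcium-buffering protein of the duct epithelium and of the tubules of the kidney (chromosome 4, 15881264 to 15908064, plus strand, mm10). It was at 13.6, 12.8 and 11.8 scaled RPKM in Cdyl-KO replicates 1, 2 and 3, against 5.74, 4.59 and 5.32 in Cdyl-Het replicates 1, 2 and 3. The lowest Cdyl-KO library was above the highest Cdyl-Het library by more than the range within either group. The means were 12.8 ± 0.8995 in Cdyl-KO and 5.22 ± 0.584 in Cdyl-Het (SD, n = 3 each), a ratio of 2.45. The log2 change was 1.15 (SE 0.09, 95% interval 0.95 to 1.35, limma adjusted p = 0.00124). This was the 32nd largest rise among the 11736 genes. It passed under all 15 alternative settings, with adjusted p between 2.78e-08 and 0.0102 and log2 changes between 1.02 and 1.30.

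Pax8, a paired-box transcription factor of the nephric lineage (chromosome 2, 24420560 to 24475599, minus strand), was at 5.63, 5.80 and 6.52 scaled RPKM in Cdyl-KO, against 4.45, 3.96 and 4.43 in Cdyl-Het. The groups did not overlap, and the gap between them was smaller than for Calb1. The means were 5.98 ± 0.473 in Cdyl-KO and 4.28 ± 0.279 in Cdyl-Het (SD, n = 3 each), a ratio of 1.40 and a log2 change of 0.40 (SE 0.07, 95% interval 0.23 to 0.57, limma adjusted p = 0.0227). The call was close to the threshold. With a library left out, Pax8 passed only without Cdyl-Het replicate 1 (adjusted p = 0.0452). The adjusted p was 0.0520, 0.0581 and 0.0587 without Cdyl-KO replicates 1, 2 and 3, and 0.0717 and 0.0714 without Cdyl-Het replicates 2 and 3 (0.000913 to 0.0717 over all alternatives). The log2 change lay between 0.28 and 0.48 over all 15 alternatives.

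Spp1 encodes osteopontin, a secreted glycoprotein of many epithelia (chromosome 5, 104435118 to 104441050, plus strand). It was the marker with the highest mean level per length in Cdyl-Het. Its values were 10.2, 8.42 and 8.71 scaled RPKM in Cdyl-KO, against 13.9, 18.1 and 17.7 in Cdyl-Het, without overlap. The means were 9.11 ± 0.948 in Cdyl-KO and 16.6 ± 2.36 in Cdyl-Het (SD, n = 3 each), a ratio of 0.549 and a log2 change of -0.79 (SE 0.11, 95% interval -1.06 to -0.53, limma adjusted p = 0.0114). This was the 128th largest fall among all genes. The call was lost without Cdyl-Het replicate 3 (adjusted p = 0.0544, log2 change -0.74; 6.36e-05 to 0.0544 over all alternatives).

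Of 16 genes on the blood and macrophage list, 7 have values, and the macrophage markers among these are Cd68 and Fcer1g. Neither passed the test beside Spp1. The limma intervals of their log2 changes were -0.45 to 0.25 for Cd68 and -0.22 to 0.63 for Fcer1g. Changes of a size within these intervals are not excluded. Fcer1g also lay near the floor, at the 0.239th percentile of level among all listed genes. The part of macrophages in the fall of Spp1 was not tested. Cd68 averaged 2.85 ± 0.879 scaled RPKM in Cdyl-KO and 3.06 ± 0.176 in Cdyl-Het, and Fcer1g averaged 1.12 ± 0.208 in Cdyl-KO and 0.855 ± 0.361 in Cdyl-Het (SD, n = 3 each; limma adjusted p = 0.720 and 0.526). Ibsp, a bone matrix gene of the same family as Spp1, was at 5.06, 2.74 and 4.78 in Cdyl-KO and at 4.65, 4.53 and 5.03 in Cdyl-Het. In these bulk samples, fewer cells of a type and less RNA per cell cannot be told apart.

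To show the promoters behind the markers that passed in opposite directions, the windows of Pax8 and Spp1 follow, with that of Epcam, the marker of the highest level among those that did not pass. They are RefSeq sequences of GRCm38.p6, from 250 bases before to 50 bases after the annotated start, 5′ to 3′ on the strand of the gene. Capitals mark AGGAAG, or CTTCCT where it lies on the other strand, a core that ETS factors bind. It is marked because the ETS factors Etv4 and Etv5, described with the duct regulators, fell in Cdyl-KO. The windows lie at chr2:24475550-24475849 (Pax8, minus strand), chr5:104434861-104435160 (Spp1, plus strand) and chr17:87635729-87636028 (Epcam, plus strand).
Pax8: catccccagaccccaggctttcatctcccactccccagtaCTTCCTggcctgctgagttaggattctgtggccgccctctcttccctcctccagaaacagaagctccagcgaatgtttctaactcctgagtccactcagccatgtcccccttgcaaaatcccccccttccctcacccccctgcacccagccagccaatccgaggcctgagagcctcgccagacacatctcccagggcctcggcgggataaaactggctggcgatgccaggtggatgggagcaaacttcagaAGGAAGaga
Spp1: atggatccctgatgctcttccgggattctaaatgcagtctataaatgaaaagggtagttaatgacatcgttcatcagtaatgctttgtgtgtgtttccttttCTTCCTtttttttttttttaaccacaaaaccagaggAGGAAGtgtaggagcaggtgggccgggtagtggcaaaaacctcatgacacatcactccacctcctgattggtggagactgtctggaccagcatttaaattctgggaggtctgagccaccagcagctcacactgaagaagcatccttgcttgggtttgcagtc
Epcam: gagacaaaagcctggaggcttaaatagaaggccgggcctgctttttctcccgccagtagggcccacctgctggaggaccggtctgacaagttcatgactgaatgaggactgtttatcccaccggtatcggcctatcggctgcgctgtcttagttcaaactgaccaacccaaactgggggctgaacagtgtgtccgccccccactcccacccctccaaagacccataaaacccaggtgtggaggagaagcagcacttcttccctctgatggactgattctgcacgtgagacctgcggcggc

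The Spp1 window held 2 matches, which begin 148 and 112 bases before the start. The Pax8 window also held 2, beginning 210 bases before and 41 bases after the start, and the Epcam window held 0. Such a match was found in 35.4% of the 32851 windows of this length, so a match in a single window is common. Of the other members with a window, Wfdc2 held 2 matches, Tfap2b held 1, and Pax2, Gata3 and Lhx1 held 0; Calb1 has no window in the table. The GC box GGGCGG, a site of Sp factors, was found on either strand in Pax8, Epcam, Pax2, Gata3 and Wfdc2, and in 35.7% of all windows. The TATA box TATAAA was found among the searched windows in Spp1 only, 211 bases before the start, and in 13.6% of all windows. The GATA core AGATAA, the NR5A1 half-site AAGGTCA and the TCF/LEF core ATCAAAG were found in 11.2%, 4.72% and 3.73% of all windows. With shares this low, it says little that they had 0 matches in the searched windows of the 8 members that have one. These members have 12 windows, and for each member only the 1 nearest the start of the gene was searched. The shares over all windows have no such choice. A match is a run of letters and does not show binding, and no match says only that these letters are not in this window.

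Pax2, the other paired-box factor of the list and the one needed for the duct to persist (chromosome 19, 44756045 to 44837871, plus strand), was at 1.52, 2.47 and 2.15 scaled RPKM in Cdyl-KO, against 2.89, 1.78 and 2.86 in Cdyl-Het. The groups overlapped, and the lowest and the highest library belonged to different groups. The means were 2.05 ± 0.486 in Cdyl-KO and 2.51 ± 0.634 in Cdyl-Het (SD, n = 3 each; log2 change -0.20, 95% interval -0.61 to 0.20, limma adjusted p = 0.512). Gata3, a zinc-finger factor of the duct (chromosome 2, 9857078 to 9890034, minus strand), was the marker with the lowest mean level. Its values were 1.35, 1.70 and 1.48 in Cdyl-KO, against 1.70, 1.55 and 2.38 in Cdyl-Het (log2 change -0.19, 95% interval -0.49 to 0.12, limma adjusted p = 0.427). Cdyl-Het replicate 3 alone was above all other libraries for Gata3.

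Epcam, an adhesion molecule of epithelial cells (chromosome 17, 87635979 to 87651129, plus strand), was at 4.23, 5.56 and 3.91 scaled RPKM in Cdyl-KO, against 5.34, 3.39 and 4.79 in Cdyl-Het. Its group means were nearly equal, at 4.57 ± 0.877 in Cdyl-KO and 4.51 ± 1.004 in Cdyl-Het (SD, n = 3 each; log2 change 0.02, 95% interval -0.36 to 0.40, limma adjusted p = 0.951). Wfdc2, a secreted protein of ducts and reproductive epithelia (chromosome 2, 164562413 to 164568510, plus strand), was at 1.56, 1.73 and 1.72 in Cdyl-KO, against 2.14, 1.12 and 2.21 in Cdyl-Het. All 3 Cdyl-KO values lay between the lowest and the highest Cdyl-Het value (log2 change -0.06, 95% interval -0.45 to 0.34, limma adjusted p = 0.867). The 95% intervals of these 4 genes reached down to a log2 change of -0.61 for Pax2 and up to 0.40 for Epcam. Changes of a size within the interval of each gene are thus not excluded. None of the 4 passed under any alternative in which it was tested (smallest adjusted p 0.228 for Pax2, 0.186 for Gata3, 0.196 for Wfdc2 and 0.595 for Epcam).

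**Figure D2:**
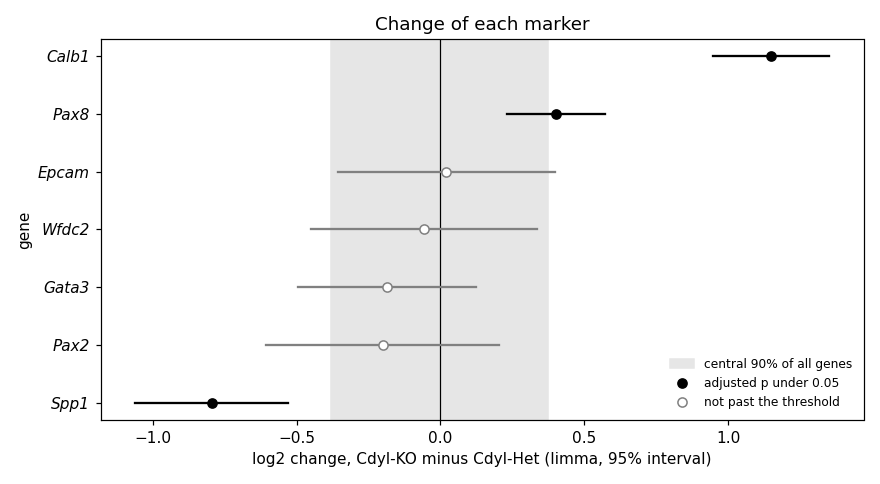
Log2 change of each marker, Cdyl-KO minus Cdyl-Het (x axis), with its 95% interval from limma; filled points passed the threshold, and the grey band, from -0.38 to 0.37, holds the central 90% of all genes. Calb1 at 1.15 and Spp1 at -0.79 lie well outside the band, Pax8 at 0.40 lies just outside it, and the other 4 lie inside.

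Reads behind the values could be recovered for 6 of the 7 markers. The step between low values implied 34.6 M to 45.2 M reads per library, and with the exon length of the gene the values of Calb1, Pax8, Spp1, Pax2, Gata3 and Wfdc2 came out as whole reads in every library, within 0.02 reads. Epcam did not. Calb1 rested on 2756, 2588 and 2406 reads in Cdyl-KO, against 1006, 906 and 1209 in Cdyl-Het. Wfdc2 rested on the fewest, 74, 82 and 82 in Cdyl-KO and 88, 52 and 118 in Cdyl-Het. All of these Wfdc2 counts were even, as were 83.4% to 86.2% of whole counts in each library, so both reads of a pair may have been counted. On that reading the lowest Wfdc2 value stood for 26 fragments, with an exact Poisson 95% interval of 16.98 to 38.1 that covers counting error only. Exons of Spp1 overlap those of Gm42793, and exons of Gata3 those of 9230102O04Rik, on the same strand, so their reads may be shared. On the opposite strand, exons of Pax8 overlap those of Gm13415, and exons of Gata3 those of Gm13256. Reads there would be shared only if counting ignored the strand, a setting that is not given.

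Gonadal factors of the labelled cell type were read beside the markers. The cells were taken by hCD271 in carriers of Nr5a1-hCD271, and no unsorted or hCD271-negative library is present. These levels therefore do not measure purity. Nr5a1, a nuclear receptor of the gonadal lineage, averaged 77.7 ± 7.31 scaled RPKM in Cdyl-KO and 85.8 ± 7.76 in Cdyl-Het (SD, n = 3 each; limma adjusted p = 0.383). Wt1 averaged 75.9 ± 1.84 in Cdyl-KO and 70.5 ± 4.93 in Cdyl-Het, and Gata4 75.2 ± 6.24 in Cdyl-KO and 79.1 ± 8.20 in Cdyl-Het, also without passing. Lhx9, a LIM homeobox relative of Lhx1 that is needed for the gonad, averaged 32.7 ± 1.42 in Cdyl-KO and 23.6 ± 2.84 in Cdyl-Het (adjusted p = 0.0273; 0.0193 to 0.0874 over all alternatives, and with a library left out it passed in 2 of 6 fits). Against these, the level per length of Pax2 was 2.05 and 2.51 in Cdyl-KO and Cdyl-Het, at the 16.5th percentile of all listed genes, and Gata3 and Wfdc2 lay at the 8.57th and 9.36th percentiles. Epcam, Pax8, Calb1 and Spp1 lay at the 39.6th, 44.3rd, 65.2nd and 76.5th percentiles. Cdyl itself, the gene whose deficiency separates the groups, averaged 6.92 ± 0.153 scaled RPKM in Cdyl-KO and 8.02 ± 0.230 in Cdyl-Het (SD, n = 3 each). It did not pass (log2 change -0.19, limma adjusted p = 0.0702), though its groups did not overlap, as in 31.6% of all genes. Relative to the Cdyl-Het mean, Cdyl was at 0.844, 0.865 and 0.882 in Cdyl-KO, against 0.969, 1.005 and 1.026 in Cdyl-Het. Of 15 alternatives it passed in 1, without scaling (log2 change -0.32, limma adjusted p = 0.0145). The part of the gene that is altered is not given, so its reads do not check the labels.

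The 4 markers that did not pass shared their extreme libraries. In Cdyl-KO, replicate 2 was the highest library for Pax2, Gata3, Wfdc2 and Epcam. The share of all genes that were highest there was not computed. In Cdyl-Het, replicate 2 was the lowest library for the same 4 genes. Their summed level, a grouping chosen after the values were seen, was 8.66, 11.47 and 9.25 scaled RPKM in Cdyl-KO, against 12.1, 7.84 and 12.2 in Cdyl-Het. Of the 15 epithelial genes with values, which are not members, 7 were lowest in Cdyl-Het replicate 2 among the Cdyl-Het libraries. The 4 cadherins of that list were divided. Cdh1 (1.62, 2.75 and 2.04 scaled RPKM in Cdyl-KO, 2.71, 1.73 and 2.69 in Cdyl-Het) and Cdh16 (1.34, 1.67 and 1.56 in Cdyl-KO, 2.26, 1.15 and 1.93 in Cdyl-Het) were highest in Cdyl-KO replicate 2 and lowest in Cdyl-Het replicate 2 within their groups. Cdh3 and Cdh6 were highest in Cdyl-KO replicate 3 and lowest in Cdyl-Het replicate 3. Nr5a1 ran the other way at these extremes: Cdyl-KO replicate 2 was its lowest library, at 70.4, and Cdyl-Het replicate 2 its highest, at 94.0. Calb1 and Pax8 also had their lowest Cdyl-Het value in replicate 2, whereas Spp1 had its highest there. Thus 6 of 7 members were lowest in Cdyl-Het replicate 2 among the Cdyl-Het libraries, as were 33.2% of all genes and 41.8% of genes with a mean under 10. The part that the content of each library has in these differences was not tested. Without Cdyl-Het replicate 2, the log2 changes of Pax2, Gata3, Wfdc2 and Epcam were -0.36, -0.27, -0.25 and -0.13 and none passed, and those of Calb1 and Spp1 were 1.07 and -0.73 and both passed (adjusted p = 0.00505 and 0.0471).

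**Figure D3:**
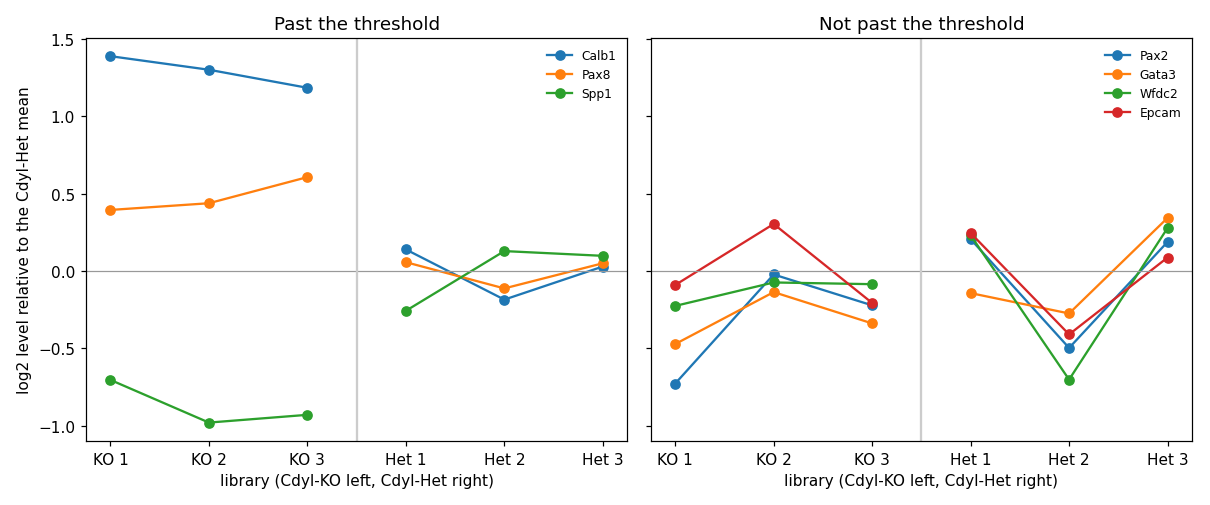
Log2 level of each gene relative to its Cdyl-Het mean (y axis) in each library (x axis, Cdyl-KO left of Cdyl-Het); lines only join values of the same gene. The 3 markers that passed are separated by genotype (left), while the other 4 each have their lowest Cdyl-Het value in replicate 2 (right).

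Ratios between markers within a library do not depend on the scaling. The ratio of Calb1 to Epcam, computed from the level per length, was 3.22, 2.31 and 3.03 in Cdyl-KO, against 1.08, 1.35 and 1.11 in Cdyl-Het. The groups did not overlap; the Epcam means were nearly equal, so this ratio adds little to the values of Calb1. The ratio of Pax8 to Pax2 was 3.71, 2.35 and 3.03 in Cdyl-KO and 1.54, 2.23 and 1.55 in Cdyl-Het, with only a small gap between the lowest Cdyl-KO and the highest Cdyl-Het library. The ratio of Pax8 to Epcam overlapped between groups (1.33, 1.04 and 1.67 in Cdyl-KO, 0.834, 1.17 and 0.926 in Cdyl-Het). The ratio of Spp1 to Epcam was lower in each Cdyl-KO library (2.41, 1.51 and 2.23) than in any Cdyl-Het library (2.60, 5.35 and 3.71). The ratio of Pax2 to Epcam overlapped, at 0.358, 0.444 and 0.551 in Cdyl-KO and 0.542, 0.524 and 0.597 in Cdyl-Het. These ratios were chosen after the values were seen and were not tested.

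Other genes of the nephric duct and of Ret signalling, the pathway by which the duct grows and branches, were lower more often than higher. Of 18 genes on this list, 10 have values, of which 5 fell in Cdyl-KO, 1 rose and 4 did not pass, with a median log2 change of -0.38. Etv4 and Etv5, ETS factors induced by Ret in the duct and by FGF signals in many tissues, had the lowest p among those that fell. Etv4 was at 1.05, 1.43 and 2.03 scaled RPKM in Cdyl-KO, against 5.08, 5.74 and 5.72 in Cdyl-Het (log2 change -1.40, SE 0.14, limma adjusted p = 0.00415). Etv5 was at 9.95, 8.78 and 12.1 in Cdyl-KO, against 16.6, 21.6 and 19.5 in Cdyl-Het (log2 change -0.85, SE 0.13, limma adjusted p = 0.0135). Neither gene had overlapping groups.

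Of the other members of the list that passed, Sox9 and Emx2 also act in the gonad. Sox9, which acts in the duct tips and in Sertoli cells, averaged 25.1 ± 5.36 scaled RPKM in Cdyl-KO and 51.7 ± 7.36 in Cdyl-Het. Bmp7, a growth factor of the nephric epithelium, averaged 3.87 ± 0.155 in Cdyl-KO and 5.25 ± 0.298 in Cdyl-Het, and Npnt, a matrix protein of the duct basement membrane, 1.92 ± 0.291 in Cdyl-KO and 3.02 ± 0.149 in Cdyl-Het (SD, n = 3 each; limma adjusted p = 0.0153, 0.0195 and 0.0323). Emx2, a homeobox factor of both the duct and the gonad, was higher, at 79.5 ± 4.24 in Cdyl-KO and 53.4 ± 5.47 in Cdyl-Het (adjusted p = 0.0129). The number of lower members on the list was 2 and 3 without Cdyl-KO replicates 1 and 3, and 1 without Cdyl-Het replicate 2 or 3; it was 4 without Cdyl-KO replicate 2 or Cdyl-Het replicate 1. With a library left out, Etv4 passed in all 6 fits, Etv5 in 4, Sox9 in 3, Bmp7 in 2 and Npnt in 0 (adjusted p of up to 0.0271, 0.0645, 0.0707, 0.0729 and 0.111).

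Of 19 genes of the mesonephric tubules and nephrogenic mesenchyme, 7 have values, and 1 was higher, 0 were lower and 6 did not pass (median log2 change -0.22). The gene that rose was Wnt4, a signal for tubule formation that is also made by the gonad, at 34.9, 29.9 and 32.4 scaled RPKM in Cdyl-KO, against 23.2, 21.9 and 20.0 in Cdyl-Het (log2 change 0.56, SE 0.08, limma adjusted p = 0.0105). Osr1, an early factor of intermediate mesoderm, averaged 2.37 ± 0.250 in Cdyl-KO and 2.93 ± 0.250 in Cdyl-Het, and its relative Osr2 averaged 6.96 ± 1.03 in Cdyl-KO and 6.85 ± 0.929 in Cdyl-Het (SD, n = 3 each), both without passing (adjusted p = 0.168 and 0.939). At 0 lower members, limma gave 3 members with an unadjusted p under 0.05 and a negative log2 change, Sall1, Osr1 and Jag1, and limma's voom on recovered reads, which tests fewer genes, called 1 of the list lower.

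Of 33 genes for keratins, junctions and epithelial identity, 15 have values, of which 4 rose in Cdyl-KO, 1 fell and 10 did not pass (median log2 change -0.06). The keratins Krt8 and Krt18, which the coelomic epithelium over the gonad also expresses, averaged 23.8 ± 1.59 and 27.6 ± 1.24 scaled RPKM in Cdyl-KO, against 18.6 ± 0.759 and 18.2 ± 2.92 in Cdyl-Het. Myo5b, a motor of vesicle traffic in epithelia, averaged 21.7 ± 1.32 in Cdyl-KO and 16.8 ± 0.713 in Cdyl-Het, and Cdh3, the placental cadherin, 22.3 ± 0.808 in Cdyl-KO and 17.8 ± 1.52 in Cdyl-Het. Spint2, a protease inhibitor of epithelia, was lower, at 5.15 ± 0.247 in Cdyl-KO and 7.35 ± 0.439 in Cdyl-Het (SD, n = 3 each; limma adjusted p = 0.0243, 0.0222, 0.0208, 0.0432 and 0.0115 for these genes in the order given). On the deposited values without scaling, 2 members of the list were higher and 2 were lower. The number of higher members was 1 without Cdyl-KO replicate 1 or 2 and 0 without Cdyl-KO replicate 3 or Cdyl-Het replicate 2 or 3. Without Cdyl-Het replicate 1 it was 3. Spint2 did not pass once Cdyl-Het replicate 3 was left out (adjusted p = 0.0536).

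**Figure D4:**
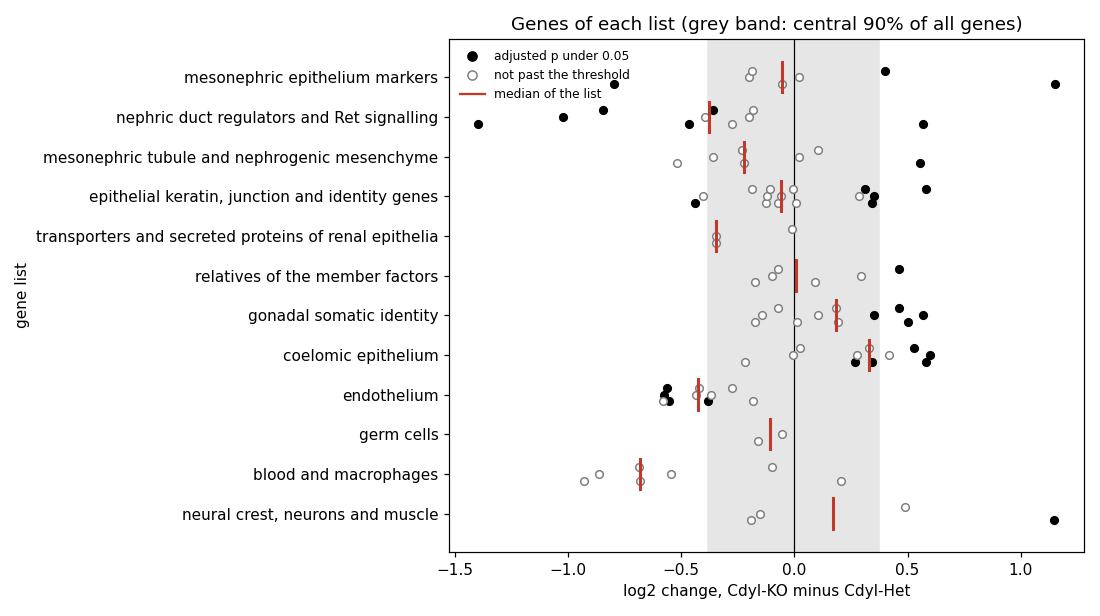
Log2 change of each gene, Cdyl-KO minus Cdyl-Het (x axis), in 12 gene lists (rows); filled points passed the threshold, red bars are list medians and the grey band holds the central 90% of all genes. The mesonephric markers spread on both sides of 0, with 3 filled points, and the endothelial genes all lie below 0.

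Among the renal transporter and secreted protein genes, 3 of 18 have values and 0 passed (limma; 1 of the 3, Lrp2, had an unadjusted p under 0.05, and voom on recovered reads called 1 lower), with log2 changes of -0.35 for Lrp2, -0.35 for Clu and -0.01 for Slc8a1. Among relatives of the member factors, 6 of 28 have values. Lhx9 was the one that passed. The GATA factors Gata2, Gata4, Gata5 and Gata6 did not, and Gata6, the most abundant of them beside Gata4, was at 40.2, 40.5 and 46.3 scaled RPKM in Cdyl-KO and at 35.5, 36.7 and 30.8 in Cdyl-Het.

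Markers of other cell types also differed between the groups. Of 10 endothelial genes with values, 4 were lower, 0 were higher and all 10 had a log2 change below 0 (median -0.43); with a library left out, 1 or 2 were lower, the 1 without Cdyl-KO replicate 1 or Cdyl-Het replicate 1. Kdr, a receptor for VEGF, averaged 6.91 ± 0.458 scaled RPKM in Cdyl-KO and 10.8 ± 0.639 in Cdyl-Het (SD, n = 3 each; limma adjusted p = 0.00715) and passed in all 6 fits with a library left out. Egfl7, Cdh5 and Tek, also expressed by vessels, had log2 changes of -0.38, -0.56 and -0.56 and passed in 1, 2 and 1 of those fits. The summed level of the list was 27.2 to 31.6 in Cdyl-KO and 40.4 to 45.6 in Cdyl-Het. Of 11 genes of the coelomic epithelium, 5 were higher and 0 were lower (median 0.33; summed level 316 to 330 in Cdyl-KO and 224 to 254 in Cdyl-Het), and with a library left out 1 to 4 were higher, the 1 without Cdyl-Het replicate 3. Besides Krt8 and Krt18, these were Podxl, a sialomucin of the cell surface (122 ± 3.68 in Cdyl-KO, 80.7 ± 7.62 in Cdyl-Het), Upk3b (13.8 ± 0.507 in Cdyl-KO, 9.30 ± 1.08 in Cdyl-Het) and Lrrn4 (5.48 ± 0.0943 in Cdyl-KO, 4.38 ± 0.0874 in Cdyl-Het), which passed in 6, 4 and 0 of the fits with a library left out. Of 4 genes of neural crest, neurons and muscle, Tubb3, a neuronal tubulin, was higher, at 3.24, 4.61 and 4.22 in Cdyl-KO and 1.33, 0.710 and 1.87 in Cdyl-Het (limma adjusted p = 0.0195; 0.0203 to 0.0624 over all alternatives, lost without Cdyl-KO replicate 2 or 3), and the other 3 did not pass. Their summed level was 10.5 to 15.3 in Cdyl-KO and 9.02 to 11.3 in Cdyl-Het. Blood and macrophage genes had 0 of 7 past the threshold with limma and with voom (1, Hbb-bt, with an unadjusted p under 0.05), with summed levels of 55.2 to 155 in Cdyl-KO and 53.3 to 256 in Cdyl-Het, and germ cell genes had 0 of 2 with limma and with voom (0 with an unadjusted p under 0.05). Among the listed genes of gonadal identity, 4 of 11 were higher and 0 were lower (summed level 459 to 503 in Cdyl-KO and 411 to 470 in Cdyl-Het). The number of higher genes was 2 without any 1 of the Cdyl-KO libraries and 3 without any 1 of the Cdyl-Het libraries. Besides Emx2 and Lhx9, they were Nr0b1, a nuclear receptor of the gonad and adrenal (18.1 ± 0.741 in Cdyl-KO, 12.5 ± 0.923 in Cdyl-Het), which passed in all 6 of those fits, and Cited2, a transcriptional cofactor (44.0 ± 1.68 in Cdyl-KO, 34.4 ± 3.69 in Cdyl-Het), which passed in 1. The part of these cell types in the changes of Calb1, Pax8 and Spp1 was not tested.

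The genes most like the members were found by the Pearson correlation, over the 6 libraries, with the mean z-score of the 7 members. They were Col5a3 (r = 0.986), Psd2 (0.984), Zbtb4 (0.981), Fez1 (0.980) and Dscr3 (0.979). All libraries share the preparation, and each of these genes had a mean below 5 scaled RPKM in both groups. None of the 5 passed the test between the groups (limma adjusted p of 0.801 to 0.980). That follows from how they were picked, because the mean z-score itself overlapped between groups. It was -0.30, 0.32 and -0.05 in Cdyl-KO replicates 1, 2 and 3, and 0.28, -0.79 and 0.55 in Cdyl-Het replicates 1, 2 and 3. The correlations describe which library was high or low: Cdyl-Het replicate 2 was the lowest of the 6 for the mean z-score and so for each of these genes. Picked as the highest among all genes over 6 libraries, they do not show a shared role.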

How the data were processed

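RNA was measured in 3 Cdyl-KO and 3 Cdyl-Het libraries of hCD271-positive cells, grouped by their labels. Each library has its own deposited table of values by symbol, and the same 11736 genes stand in all of them. STAR, Subread and featureCounts 1.6.4 were used with mm10, per the submitters' processing notes. The sources used here do not give the annotation, the strand setting or the gene filter. The unit is not stated. The deposited values were taken as RPKM because 80.6% to 84.4% of those under 5000 reads became whole reads (within 0.02) when multiplied by a GENCODE M21 exon length and a library total of 34.6 M to 45.2 M reads. At least 1 group mean above 1 holds for every listed gene, so weaker genes are not analysed here.

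RPKM were scaled per library by a trimmed mean of log ratios (30% of ratios and 5% of levels trimmed at each end) against Cdyl-Het replicate 1. The log2(scaled RPKM + 1) values were tested with limma 3.58.1 (R 4.3.3), trend on, Benjamini-Hochberg adjustment over all genes and a threshold of 0.05. Fold changes on this scale understate those of low genes. The procedure was tested on simulated data.

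Named were all members, Nr5a1, Wt1, Gata4, Lhx9 and Cdyl, up to 5 genes of each other list with the smallest p among those that passed, the 3 of the highest level in the duct, mesenchyme and epithelial lists, and the 5 genes most like the members; Cdh1, Cdh6, Cdh16, Osr1, Sall1, Jag1, Ibsp, Lrp2, Clu, Slc8a1, Gata2, Gata5, Gata6, Cd68, Fcer1g and Hbb-bt were added after their values were seen. The members and lists were chosen with earlier results of these data known. Alternatives were 2 other pseudocounts (0.1 and 0.5), a filter on means under 5 RPKM, no scaling, median-of-ratios scaling, no trend, a replicate block and leaving out each library; limma's voom on recovered reads and scaling against Cdyl-KO replicate 1 were added after seeing the data. No column of per-sample values was left unused (0).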

Additional observations from a re-analysis of the deposited data

How the results depend on the processing

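Calb1 kept its call in all 15 alternatives. Without scaling, 1863 genes changed, 305 higher and 1558 lower, against 880 (548 higher and 332 lower) with it, because the median log2 change of all genes was then -0.12. Calb1, Pax8 and Spp1 kept their direction there. With means of at least 5 RPKM, 200 of the genes that changed were lower, and voom on recovered reads called 1190 genes, 531 of them lower; these fits tested 6666 and 7738 genes. The other settings with all libraries and no block gave 799 to 929 calls. With a library left out, 253 to 647 genes changed (197 to 387 higher, 56 to 260 lower), 1 or 2 members were higher and 0 or 1 were lower, and the median of the members was -0.25 to 0.0483. The log2 change was then 0.35 to 0.44 for Pax8 and -0.91 to -0.73 for Spp1. Fewer samples entered those fits.

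Replicate numbers are shared in the labels, which do not say whether they pair libraries. Same-numbered libraries had correlations of deviations of -0.05, -0.27 and -0.05, so no pairing was seen. With 3 libraries per group, these values cannot exclude it. With the replicate block, 337 genes changed (209 higher, 128 lower), 328 of them shared with the fit without it. Then 1 member was higher, and Pax8 had a log2 change of 0.40 with a limma adjusted p of 0.0542. Of the other lists, the block left 3 duct genes and 1 endothelial gene lower, and 2 coelomic and 2 gonadal identity genes higher. It left 0 higher among the epithelial genes, the relatives of the member factors, and the neural crest, neuron and muscle genes. Tubb3 thus also lost its call with the block. In the duct and mesenchyme lists 1 gene each stayed higher, and 1 epithelial gene stayed lower. Of 1238 single-gene values under the alternatives (87 genes), 1127 stayed on their side of the threshold, 94 lost the call, 17 gained one and 0 called values changed sign. Wfdc2 had the fewest recovered reads of the markers, 52 to 118 per library.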
